A study of Drosophila melanogaster with 90 samples.

Results

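Female Drosophila melanogaster mated to males that lack Sex Peptide were compared with virgin females at 3 h after mating, by bulk RNA sequencing of heads. The 6 libraries, 3 of SP-null-mated and 3 of virgin heads, were taken by their labelled treatment and time from a table of raw gene counts that held 87 libraries. All females were Canton-S, a wild-type laboratory strain, and the males were either wildtype or Sex Peptide null. Matings fell within a morning window, females were flash frozen at their time point, and virgins were frozen in parallel, so that both groups share the time of day. The letters A, B and C mark 3 runs of the whole time series, and each group had 1 library per run. The labels give neither the age of the females, nor the allele of the males, nor the number of heads in a library. In bulk heads, fewer cells of a type and less RNA per cell cannot be told apart.

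Males pass Sex Peptide to the female in the seminal fluid. It binds to sperm, is stored with them and changes her egg laying, feeding, sleep and willingness to mate again. Females mated to males without it still receive sperm and the rest of the ejaculate. Many of the genes that differed at 3 h belong to ribosome biogenesis, the work of the nucleolus. RNA polymerase I transcribes a long rRNA precursor there, small nucleolar ribonucleoproteins (snoRNPs) guide its chemical modification, nucleases such as the RNA exosome trim it, and assembly factors and GTPases help to build and export the subunits. These genes are known to rise and fall together with growth and protein synthesis.

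Total counts of the 6 libraries ran from 16393524 to 21972991, against 15411046 to 103387056 over all 87. Expression is given as CPM after TMM scaling, that is, as counts on a scale common to all libraries, corrected for library size and composition. The first principal component of the 6 libraries held 37.2% of their variance and separated the groups, with scores of 12.96, 11.04 and 6.27 in SP-null-mated repeats A, B and C and of -7.05, -6.31 and -16.92 in the virgin repeats. No 2 libraries of a group agreed within sampling noise (chi-square per degree of freedom from 15.8 to 44.8). Markers of head tissue were high in all 6: the 11 photoreceptor markers summed to 42700 to 45500 CPM in mated and 43800 to 46600 CPM in virgin heads, and the 11 neuron markers to 5450 to 5940 CPM in mated and 5500 to 5800 CPM in virgin heads. The 11 glia markers tested summed to 3450 to 3630 CPM in mated and 3090 to 3410 CPM in virgin heads, without overlap. The sums of the muscle, haemocyte and head fat body markers overlapped between the groups. Differences in these sums were not tested. Of the body tissues listed, 3 of 21 ovary, 3 of 23 midgut and 1 of 24 male accessory gland and sperm markers were tested, and no member of any of the 9 marker lists was called.

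At 3 h, 231 genes were higher and 38 lower in SP-null-mated heads, of 9024 tested. A gene is called here when its adjusted p is under 0.05 in edgeR's quasi-likelihood test, with Benjamini-Hochberg adjustment over all 9024 genes. The 269 calls were 2.98% of the genes, 2.56% higher and 0.421% lower, and 1086 genes had an unadjusted p under 0.05. The log2 fold change of the higher genes had a median of 0.63, and 25 of them exceeded 1, while the lower genes had a median of -0.45 and all genes one of -0.00. In 223 of the 231 higher genes every mated library lay above every virgin library, and in 37 of the 38 lower genes every mated library lay below. Over all genes tested, 10% had the first order and 6.68% the second. The higher genes had a median level of 4.14 log2 CPM, below the 4.84 of all genes, and the lower genes one of 5.46. The median exonic length was 2209 bases for the higher and 1904 bases for the lower genes, against 2203 bases for all. The count moved with the fit: 71 genes were called when the 6 libraries were fitted alone and 219 in that fit with the repeat as a block. In the fit of all libraries it was 154 without SP-null-mated repeat A and 171 without virgin repeat C.

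**Figure D1:**
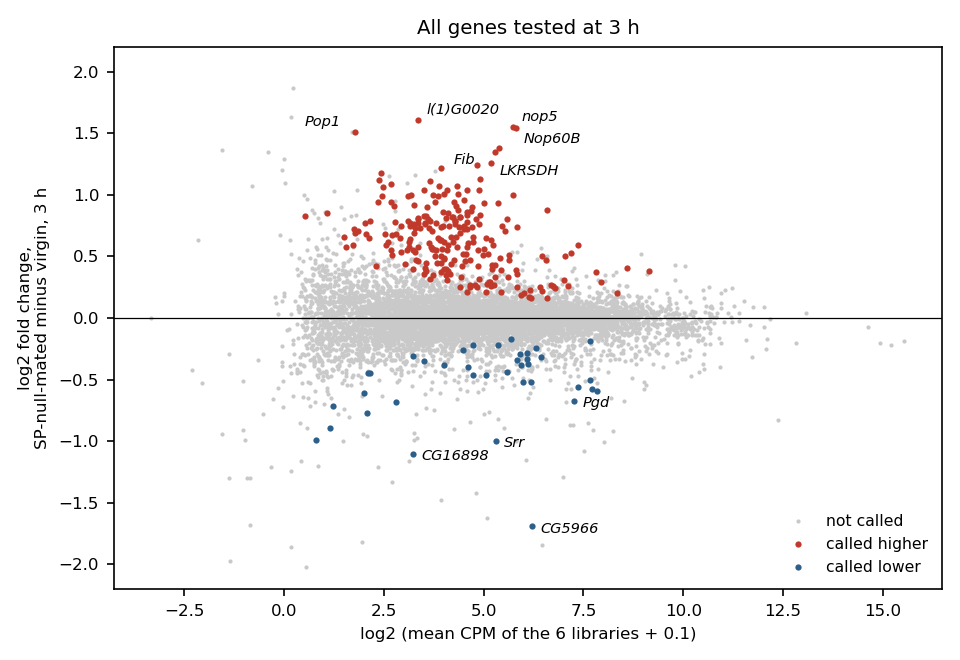
Log2 fold change at 3 h, SP-null-mated minus virgin, against the log2 of the mean CPM of the 6 libraries plus 0.1, 1 point per gene tested. Red points are the 231 genes called higher and blue points the 38 called lower; 5 genes, 0 of them called, lie beyond the axis limit of 2.2.

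The core proteins of the box C/D snoRNP, which carries out 2'-O-methylation of rRNA, were all 4 higher, with a median log2 fold change of 1.37. The gene nop5 (FBgn0026196, chromosome 2L, 6916753 to 6918743, minus strand, BDGP6), a core scaffold of the particle, had 102, 85.6 and 50.4 CPM in SP-null-mated repeats A, B and C and 36, 23.7 and 21.4 CPM in the virgin repeats. Its lowest mated library was above its highest virgin library, and its log2 fold change was 1.55 ± 0.236 (SE, n = 3 each; adjusted p 3.46e-06). Nop56 (FBgn0038964, chromosome 3R, 22419095 to 22421068, minus strand), the second scaffold, had 73.9, 69.4 and 38.8 CPM in mated and 28.2, 24.3 and 17 CPM in virgin heads. It differed by 1.38 ± 0.211 (adjusted p 3.51e-06), and its groups did not overlap either. Fib, fibrillarin, the methyltransferase of the particle, had 76.9, 54.4 and 37.1 CPM in mated and 26, 21.4 and 18.4 CPM in virgin heads. Its log2 fold change was 1.35 ± 0.245 (adjusted p 9.34e-05). The RNA-binding protein gene hoip (FBgn0286786, chromosome 2L, 9699791 to 9700459, plus strand) had 27.2, 22.4 and 14.1 CPM in mated and 10.7, 8.66 and 7.8 CPM in virgin heads, a difference of 1.22 ± 0.211 (adjusted p 3.82e-05). In each of the 4 genes mated repeat C was the lowest mated library. All 4 calls held whichever of the 6 libraries was left out, and 0 of the 4 when the 6 libraries were fitted alone, in which fit 4 of 4 held with the repeat block. A small nucleolar RNA gene and x16 overlap nop5 on its own strand in the annotation, and another small nucleolar RNA gene overlaps Fib.

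The box H/ACA snoRNP, which turns uridine into pseudouridine, was higher in all 4 of its core genes, with a median log2 fold change of 0.85. Nop60B, the pseudouridine synthase, had 107, 87.3 and 53.7 CPM in mated and 35.5, 26 and 23.9 CPM in virgin heads. This was a log2 fold change of 1.54 ± 0.209 (adjusted p 5.28e-07) with no overlap of the groups. NHP2 had 28.7, 24.5 and 15.4 CPM in mated and 13.3, 11.1 and 8.8 CPM in virgin heads, a difference of 1.04 ± 0.185 (adjusted p 6.9e-05). The small subunits moved less. Nop10 differed by 0.65 ± 0.171 (adjusted p 0.0171), and Gar1 by 0.66 ± 0.183 (adjusted p 0.0264) with overlapping groups, since mated repeat C at 16.1 CPM lay below virgin repeat A at 16.3 CPM. The calls of Nop10 and Gar1 were each lost in 4 of the 6 fits that leave out a library, and without SP-null-mated repeat A their values were 0.43 and 0.46. In the fit of the 6 libraries alone 0 of the 4 genes were called, and 3 with the repeat block. Nop60B holds several small nucleolar RNA genes on its own strand, and the strand setting used in counting is not stated.

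**Figure D2:**
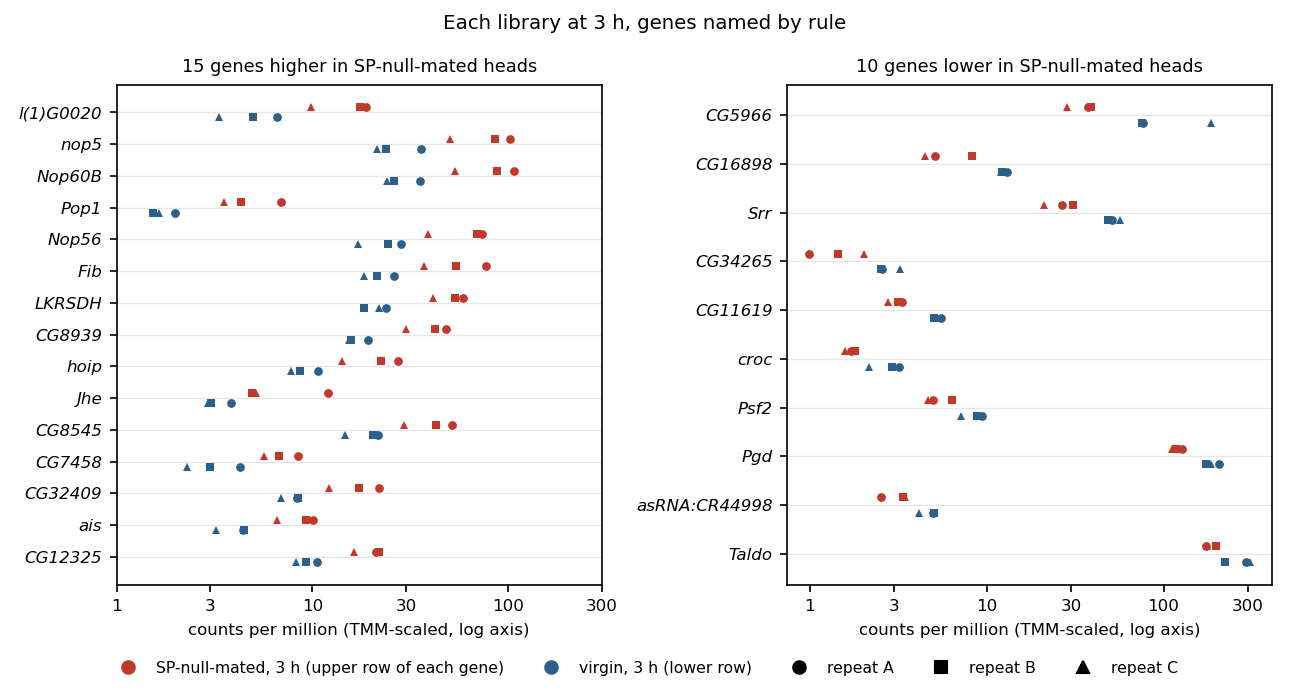
TMM-scaled CPM (log axis) of each of the 6 libraries for the 15 higher and 10 lower genes with the largest log2 fold change, SP-null-mated above virgin within each gene, with the marker shape giving the repeat. The 25 genes were drawn from called genes with a mean of at least 1 log2 CPM whose mated libraries lie wholly on 1 side of the virgin libraries. That separation was therefore fixed by the choice. Mated repeat C is the closest to the virgins in most of the higher genes.

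Genes for RNA polymerase I, the enzyme that makes the large rRNA precursor, were higher in 7 of 7 subunits, with a median log2 fold change of 0.77. Polr1B (FBgn0003278, chromosome 2L, 404285 to 407969, plus strand), one of the 2 large subunits, had 23.2, 18.1 and 15.9 CPM in mated and 10.2, 10.1 and 8.33 CPM in virgin heads. The mated libraries were above all virgin libraries, by 0.99 ± 0.126 (adjusted p 1.4e-07). Polr1A, the largest subunit, had 43.4, 39.1 and 32.9 CPM in mated and 23.7, 21.3 and 19.4 CPM in virgin heads, a difference of 0.84 ± 0.116 (adjusted p 5.28e-07). Polr1E differed by 0.73 ± 0.15 (adjusted p 0.000705) and Polr1C, a subunit shared with RNA polymerase III, by 0.54 ± 0.114 (adjusted p 0.0011). Tif-IA, which recruits the polymerase to rRNA genes, was higher by 0.40 ± 0.116 (adjusted p 0.0366). The 2 other nuclear polymerases gave smaller numbers. RNA polymerase II had 2 of 12 subunits called, with a median of 0.10: Polr2F at 0.50 ± 0.124 (adjusted p 0.00807) and Polr2E at 0.36 ± 0.106 (adjusted p 0.0441), both of them subunits that all 3 enzymes share. Neither was called without SP-null-mated repeat A or in the fit of the 6 libraries alone, and Polr2E lost its call in 4 of the 6 fits that leave out a library. RNA polymerase III had 1 of 9 called, Polr3B at 0.40 ± 0.0885 (adjusted p 0.00185), with a median of 0.23; with the replicate block 3 were called, and in the fit of the 6 libraries alone 0. The 9 leave out the shared subunits Polr1C, Polr2F and Polr2E, each of which is counted with another enzyme. Among all genes 2.56% were called higher. These differences between the enzymes were not tested. Of the 7 subunits of RNA polymerase I, 3 were called without SP-null-mated repeat A and 2 in the fit of the 6 libraries alone.

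Several genes that modify or cleave rRNA led the whole comparison. The largest log2 fold change was that of l(1)G0020 (FBgn0027330, chromosome X, 8716713 to 8720277, minus strand), the fly ortholog of an rRNA acetyltransferase of yeast and human cells. It had 18.7, 17.5 and 9.86 CPM in mated and 6.6, 4.96 and 3.34 CPM in virgin heads, a difference of 1.61 ± 0.224 (adjusted p 6.62e-07). Pop1, a protein subunit of the RNA-processing enzymes RNase P and RNase MRP, had 6.88, 4.32 and 3.53 CPM in mated and 1.99, 1.54 and 1.64 CPM in virgin heads. Its log2 fold change was 1.51 ± 0.233 (adjusted p 4.33e-06). CG1785 overlaps l(1)G0020 on the other strand and was called higher too, by 0.75, so reads of these 2 genes may be shared. The RNA exosome, which trims the ends of rRNA precursors, had 7 of 11 genes higher and 0 lower, with a median of 0.58. Mtr4, the helicase that feeds RNA to it, was higher by 0.62 ± 0.113 (adjusted p 8.14e-05), and the nuclease Dis3 by 0.48 ± 0.0929 (adjusted p 0.000253). Mtr3 and Rrp42, subunits of its ring, each differed by 0.68 (adjusted p 0.000579 and 0.00203). The 4 exosome genes that missed the threshold, Rrp46, Rrp40, Rrp4 and Csl4, had values from 0.37 to 0.58. The count was 4 without SP-null-mated repeat A and 11 without SP-null-mated repeat C, and of the 7 calls 0 held in the fit of the 6 libraries alone and 3 in that fit with the repeat block.

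Assembly factors of the ribosomal subunits were higher as well. The Noc proteins, some of which escort precursors of the large subunit, were called in 4 of 4, with a median of 0.74. Noc2 had 32.1, 28.1 and 21.2 CPM in mated and 15, 13.7 and 11.7 CPM in virgin heads, with no overlap and a log2 fold change of 1.01 ± 0.141 (adjusted p 6.62e-07). Noc3 differed by 0.75 ± 0.118 (adjusted p 6.56e-06), Noc1 by 0.52 ± 0.0956 (adjusted p 0.000104) and CG2875, the remaining gene of the list, by 0.73 ± 0.154 (adjusted p 0.00096). The nucleostemin family of nucleolar and cytoplasmic GTPases had 3 of 4 genes higher. Ns1 differed by 0.65 ± 0.109 (adjusted p 1.95e-05), Ns3 by 0.61 ± 0.148 (adjusted p 0.00649) and Ns2 by 0.49 ± 0.0914 (adjusted p 0.000134), while Ns4 had -0.10 (adjusted p 0.461). The fit of the 6 libraries alone called 1 of the Noc proteins and 1 of the nucleostemins.

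A broad list of 40 ribosome biogenesis genes had 38 tested, of which 29 were higher, 0 lower and 37 positive, with a median log2 fold change of 0.63. Several genes named above belong to this list too. Nnp-1 was higher by 0.76 ± 0.114 (adjusted p 3e-06). The 9 members that were not called included the transcription factor gene Myc, a known driver of ribosome biogenesis, at 0.29 (adjusted p 0.637), and eIF6, which keeps the subunits apart, at 0.50 (adjusted p 0.108). The lowest value, -0.03, was that of Rrp1, which is a DNA repair enzyme in flies. Taken over its 38 genes, the list averaged 4.84, 4.68 and 4.32 log2 CPM in SP-null-mated repeats A, B and C and 4.05, 3.94 and 3.80 log2 CPM in the virgin repeats. Both groups had repeat A highest and repeat C lowest, and the lowest mated library was above the highest virgin library. Within repeats the median difference of the list was 0.80 in A, 0.72 in B and 0.43 in C. The same order held in the 231 higher genes: mated repeat C was the lowest mated library in 205 and virgin repeat C the lowest virgin library in 155, against 2977 and 3325 of all 9024 genes. Of the 29 calls, 21 held whichever library was left out, and 4 genes of the list were called in the fit of the 6 libraries alone, or 24 in that fit with the repeat block. The 6 lists of complete complexes (both snoRNP cores, RNA polymerase I, the exosome, the Noc proteins and the nucleostemins) were chosen after seeing these data. Together with ribosome biogenesis they held 54 genes tested, of which 43 were higher and 0 lower. Among all genes 2.56% were higher and 0.421% lower. The 54 were picked in part from the same data, so their share is not a test.

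**Figure D3:**
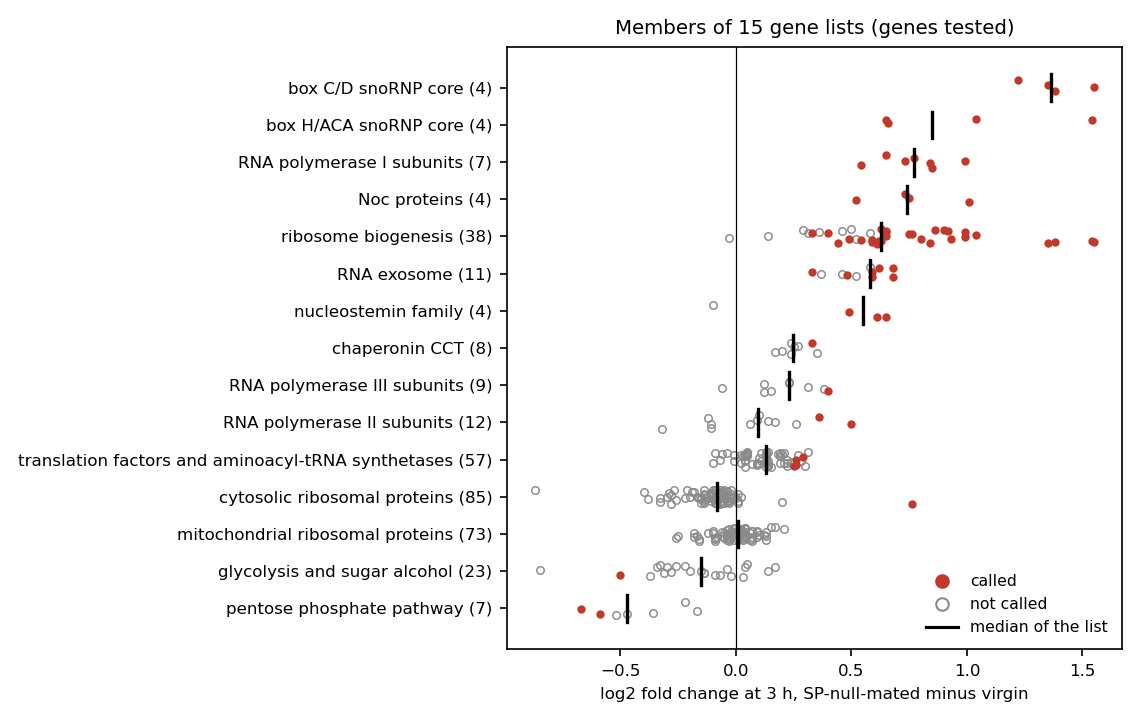
Log2 fold change at 3 h, SP-null-mated minus virgin, of each member of 15 gene lists, with the number of genes tested after each name. Filled points were called, open points were not, and bars are list medians, from 1.37 for the box C/D core to -0.47 for the pentose phosphate pathway.

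The protein parts of the ribosome gave few calls, 1.18% of the cytosolic and 0% of the mitochondrial genes. Among all genes 2.56% were called higher, and the translation machinery had a larger share. Of 85 cytosolic ribosomal protein genes, 1 was called, RpLP0-like, which in yeast has a counterpart in subunit assembly rather than in the finished ribosome. It was higher by 0.76 ± 0.157 (adjusted p 0.000665), with 27.8, 30.1 and 15.6 CPM in mated and 14.4, 16.1 and 12.6 CPM in virgin heads, so that its groups overlapped. The median of the 85 was -0.08, and 6 were positive. Within repeats their median was 0.06 in A, -0.04 in B and -0.28 in C. Mitochondrial ribosomal proteins had 0 of 73 called and a median of 0.01. Translation factors and aminoacyl-tRNA synthetases had 4 of 57 (7.02%) higher and 0 lower, with 50 positive and a median of 0.13. The 4 were the termination factor eRF1 at 0.26 ± 0.0531 (adjusted p 0.000706), CysRS at 0.29 ± 0.0846 (adjusted p 0.037), IleRS at 0.26 ± 0.074 (adjusted p 0.0358) and GluProRS at 0.25 ± 0.074 (adjusted p 0.0418). The 3 synthetase calls were lost in 4 or 5 of the 6 fits that leave out a library, and the eRF1 call in none of them. In the fit of the 6 libraries alone 0 of these 4 genes were called, and 0 with the repeat block. The chaperonin CCT, which folds actin and tubulin, had 1 of 8 called, CCT1 at 0.33 ± 0.0958 (adjusted p 0.0424), with all 8 positive and a median of 0.25. The call of CCT1 was lost in 4 of the 6 fits that leave out a library and in the fit of the 6 libraries alone, and 2 of the 8 were called with the replicate block.

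Single genes outside ribosome biogenesis were also among the higher ones. LKRSDH, which starts the breakdown of lysine, had 58.6, 53.6 and 41.2 CPM in mated and 23.7, 18.4 and 21.9 CPM in virgin heads. The mated libraries were all above the virgin ones, by 1.26 ± 0.22 (adjusted p 5.22e-05), and the call held in every alternative run. Jhe, juvenile hormone esterase, which inactivates the hormone, had 12, 4.92 and 5.17 CPM in mated and 3.82, 3.03 and 2.93 CPM in virgin heads. Its log2 fold change of 1.18 ± 0.269 (adjusted p 0.00276) rested in part on mated repeat A, without which it was 0.63 and not called. It was the 1 called gene of 12 juvenile hormone genes tested (8.33%), whose median was -0.07. Among all genes 2.56% were called higher. The hormone's epoxide hydrolases, its receptors Met and gce and the target gene Kr-h1 were not called, with values from -0.20 to 0.06. In the redox and one-carbon list 2 of 31 genes (6.45%) were higher, beside the same 2.56% of all genes. Sam-S, which makes S-adenosylmethionine, the methyl donor, had 451, 494 and 372 CPM in mated and 365, 320 and 305 CPM in virgin heads, a difference of 0.41 ± 0.105 (adjusted p 0.0115). Cbs, cystathionine beta-synthase, differed by 0.58 ± 0.163 (adjusted p 0.0306). Both of these calls were lost in 4 of the 6 fits that leave out a library.

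Other genes among the 15 largest were CG8939 at 1.24, CG8545 at 1.13, CG7458 at 1.12, CG32409 at 1.11, ais at 1.09 and CG12325 at 1.07. All 6 had mated libraries wholly above the virgin ones, which the choice of the 15 required. The call of CG7458 was lost without SP-null-mated repeat A or without virgin repeat C. Of the 231 higher genes, 176 were in none of the lists, and 80 carried only a CG number as a symbol. The lists are not complete, so a gene in none of them may still belong to ribosome biogenesis.

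The 38 lower genes were fewer and less stable, with 5 of them called in all 6 fits that leave out a library, against 122 of the 231 higher genes. Srr, serine racemase, which makes D-serine, was the only one of the 10 named lower genes whose call held in every alternative run. It had 26.8, 30.9 and 21.1 CPM in mated and 51.3, 48.3 and 57 CPM in virgin heads, a difference of -1.0 ± 0.226 on the log2 scale (adjusted p 0.00276). The largest difference was that of CG5966, with 37.4, 39.1 and 28.6 CPM in mated and 76.1, 76 and 186 CPM in virgin heads. It was -1.69 ± 0.474 (adjusted p 0.0317), and it was not called without virgin repeat C, the high library, where it was -1.12, nor without any 1 of the 3 mated libraries, nor in either fit of the 6 libraries alone. CG16898 had 5.12, 8.28 and 4.48 CPM in mated and 13, 12.3 and 12.1 CPM in virgin heads, a difference of -1.10 ± 0.316 (adjusted p 0.0376) that 5 of the 6 fits without a library did not call. The DNA replication gene Psf2 differed by -0.68 ± 0.157 (adjusted p 0.00336) and lost its call only in the fit of the 6 libraries alone. CG34265, CG11619, the forkhead gene croc and asRNA:CR44998 were also among the 10 named lower genes, with values from -0.89 to -0.61, and each lost its call without at least 1 library. HDAC6 lies opposite asRNA:CR44998, and without a stated strand setting their reads cannot be told apart. The odorant receptor gene Or63a, the 1 called gene of 39 for odorant binding and chemoreception, differed by -0.45 ± 0.132 (adjusted p 0.0418) and was not called in any fit that left out a library, nor by DESeq2. It made up 2.56% of its list, where 2.98% of all genes were called and 0.421% were called lower.

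Genes of sugar metabolism made up 3 of the lower genes, and Pgd and Taldo were the remaining pair of the 10 named. Of 7 genes of the pentose phosphate pathway tested, 2 were lower, 0 higher and 7 negative, with a median of -0.47. Among all genes 0.421% were called lower. The list of this pathway was chosen after seeing these data, so its share is not a test. Pgd (FBgn0004654, chromosome X, 2145136 to 2148566, plus strand), 6-phosphogluconate dehydrogenase of the branch that makes NADPH, had 127, 118 and 111 CPM in mated and 206, 173 and 186 CPM in virgin heads. Its groups were apart, with a difference of -0.67 ± 0.177 (adjusted p 0.0177). Taldo, transaldolase of the later branch, had 173, 198 and 177 CPM in mated and 292, 223 and 308 CPM in virgin heads, a difference of -0.59 ± 0.167 (adjusted p 0.0332). The first enzyme, Zw, had -0.22 and was not called (adjusted p 0.577). AGBE, which branches glycogen, was the 1 called gene of 23 in the glycolysis and sugar alcohol list, at -0.50 ± 0.145 (adjusted p 0.0402), and the median of that list was -0.15. These calls were fragile: Pgd lost its call in 4 and Taldo and AGBE in 5 of the 6 fits that leave out a library, and AGBE was -0.34 without virgin repeat C. Within repeats the pathway's median was -0.41 in A, -0.15 in B and -0.74 in C. The 14 head fat body markers tested followed the same order, with medians of -0.10 in A, 0.27 in B and -0.76 in C. Those markers summed to 138000, 136000 and 97500 CPM in mated repeats A, B and C and to 159000, 115000 and 161000 CPM in the virgin repeats, and 0 of the 14 was called. Their part in the lower genes was not tested.

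Genes named whatever their result included SPR, the receptor of Sex Peptide, which had 45.5, 50.1 and 51 CPM in mated and 47.5, 53.6 and 40.8 CPM in virgin heads. The groups overlapped, and the difference was 0.05 ± 0.0774 (adjusted p 0.906). The clock gene Clk differed by 0.11 ± 0.101 (adjusted p 0.791), and 0 of 8 clock genes was called. The feeding-responsive fat body gene fit had 712, 544 and 306 CPM in mated and 596, 359 and 636 CPM in virgin heads, spread as widely within as between the groups (-0.03 ± 0.293, adjusted p 0.991). CG11741 had 8.2, 8.94 and 9.6 CPM in mated and 4.35, 3.58 and 5.93 CPM in virgin heads. Its groups were apart, but at 0.95 ± 0.403 it was not called (adjusted p 0.267). It was called in the fit of the 6 libraries alone (adjusted p 0.0398) and in that fit with the repeat block (adjusted p 0.00493), and in no other alternative, where the adjusted p ran from 0.231 to 0.503. Altogether 38 of the 46 lists written with the design that had a tested member had no gene called, among them the lists for neuropeptides, antimicrobial peptides, insulin signalling, phototransduction, synaptic release and ion channels. Of all genes 2.98% were called. A short list with no call, the 8 clock genes included, is therefore near the share of all genes and does not show that its genes were unchanged.

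The difference was followed through the times of the series, each with libraries of its own. Of the 231 genes higher at 3 h, 176 were called higher at 2 h, where 3.86% of all genes were, and 47 at 4 h, where 1.26% were. At 1 h the count was 3 (0.454% of all genes), and at 0.5 h it was 0 (0.199%). From 5 h onward none of the 231 had a call, with 0.0111% of all genes called higher at 8 h, 0.0554% at 24 h and 0% at the times 5 h, 6 h and 12 h. The 176 shared genes were 76.2% of the 3 h set and 50.6% of the 348 genes higher at 2 h, and the 47 were 20.3% of the 3 h set and 41.2% of the 114 at 4 h. Their median log2 fold change was -0.17 at 0.5 h, when 27 of the 231 were positive, and -0.05 at 1 h. It reached 0.57 at 2 h, then stood at 0.27 at 4 h and 0.03 at 5 h. By 6 h, where virgin heads lack repeat C, it was -0.17, when 21 were positive. Of the 231, 1 was called lower at 0.5 h, as 0.477% of all genes were. Of the 38 lower genes, 7 were called lower at 2 h and 7 at 4 h, where 0.698% and 0.931% of all genes were.

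The ribosome biogenesis list followed this course. At 0.5, 1, 2, 3, 4, 5 and 6 h its mean level in SP-null-mated heads was 3.85, 3.93, 4.59, 4.61, 4.46, 4.12 and 4.02 log2 CPM (n = 3 each). In virgin heads it was 4.05, 3.98, 3.95, 3.93, 4.11 and 4.01 log2 CPM at the first 6 of these times (n = 3 each) and 4.27 log2 CPM at 6 h (n = 2). The list had 29 of 38 genes called higher at both 2 h and 3 h, 9 at 4 h and 0 from 5 h on. Its lowest median after 3 h, -0.23, came at 6 h, where 3 of 38 genes were positive and 0 was called. Virgin heads at 6 h lack repeat C, the lowest virgin library of this list at every other time. In repeats A and B at 6 h the list averaged 4.22 and 3.96 log2 CPM in SP-null-mated heads. In virgin heads of those letters it averaged 4.30 and 4.24 log2 CPM. The box C/D core had a median of 1.14 at 2 h with 4 of 4 genes called and of 1.37 at 3 h with 4 called. Its median was 0.90 at 4 h with 3 called, and 0.35 at 5 h with 0 called. Singly, nop5 averaged 6.14, 6.25 and 5.84 log2 CPM in mated heads at 2, 3 and 4 h, against 4.99, 4.72 and 5.16 log2 CPM in virgin heads. LKRSDH averaged 5.67 log2 CPM in mated heads at 1 h, against 4.47 log2 CPM in virgin heads. It differed by 2.22 at 2 h (adjusted p 3.23e-10) and by 1.26 at 3 h. Jhe differed by 1.76 at 2 h (adjusted p 8e-07) and by 1.38 at 4 h (adjusted p 0.00258).

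**Figure D4:**
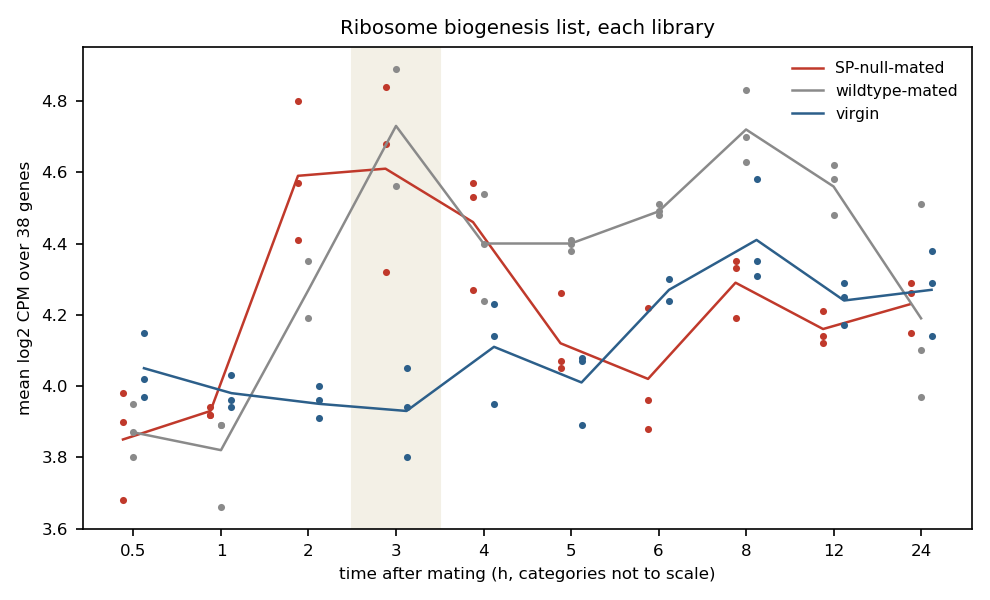
Mean log2 CPM over the 38 ribosome biogenesis genes against time after mating (categories, not to scale), with 1 point per library and lines through the group means. At 3 h, shaded, the SP-null-mated libraries lie from 4.32 to 4.84 and the virgin libraries from 3.80 to 4.05. At 6 h the SP-null-mated mean is 4.02 and the virgin mean, which lacks repeat C, is 4.27.

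Whether the difference itself changed with time was tested as an interaction in the same model. Between 3 h and 2 h 0 genes were called (510 at an unadjusted p under 0.05, smallest adjusted p 0.194), and DESeq2 called 2. Between 3 h and 4 h 0 were called (547 unadjusted, smallest adjusted p 0.0524), DESeq2 called 10, and the fit with the repeat as a block called 17. Against the mean of 5 h to 24 h, 301 genes (3.34%) were called, with a more positive difference at 3 h for 2.74% of all genes and a more negative one for 0.598%. They included 210 of the 231 higher and 27 of the 38 lower genes, whose selection used the 3 h term of this test. Polr1B changed by 1.17 ± 0.138 (adjusted p 2.77e-08), CG4554 by 1.17 ± 0.149 (adjusted p 1.82e-07) and CG13097 by 0.93 ± 0.1 (adjusted p 2.57e-09). Against 0.5 h, a test added once the data had been seen, the count was 275 (3.05% of all genes, 2.88% more positive, 0.166% more negative at 3 h), including 176 of the 231 and 3 of the 38. Against 6 h, chosen in the same way, 196 were called (2.17%, 1.89% more positive and 0.277% more negative), including 161 of the 231 and 8 of the 38. Virgin heads at 6 h lack repeat C, and the main fit has no repeat block. The count against 5 h to 24 h was 169 without SP-null-mated repeat A and 194 without virgin repeat C, and that against 0.5 h was 181 without SP-null-mated repeat A.

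**Figure D5:**
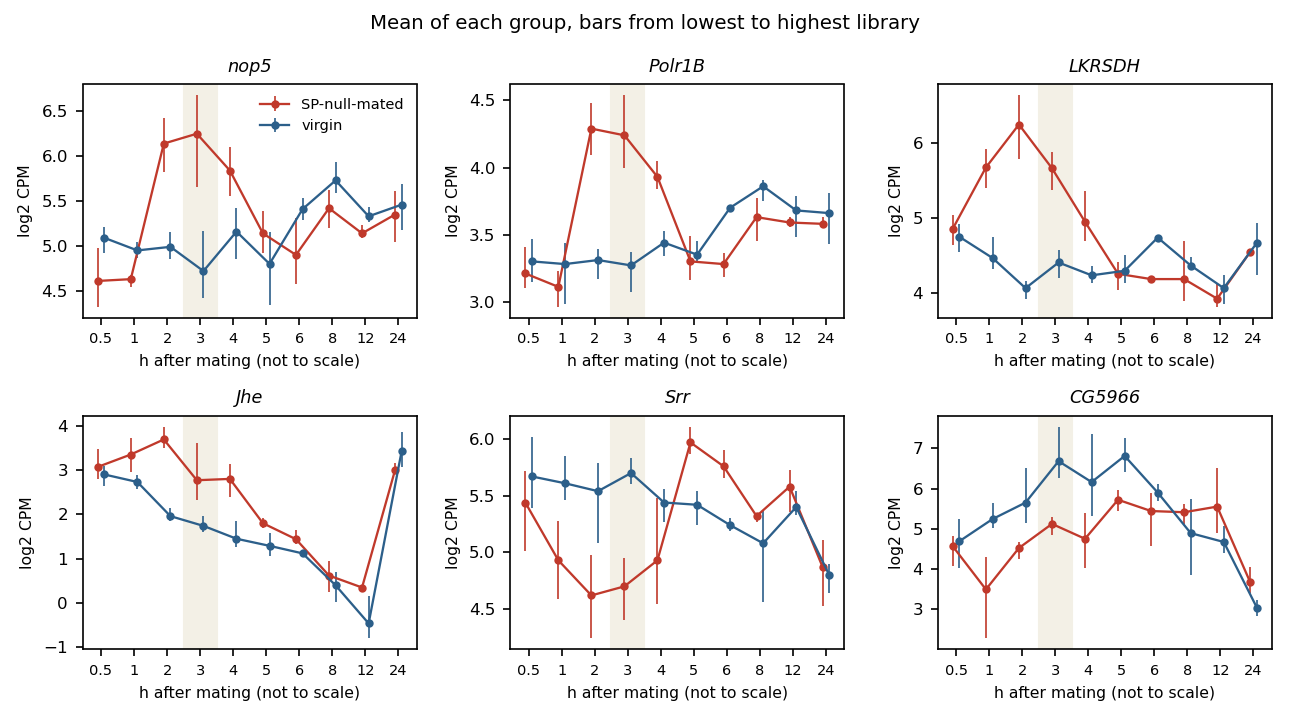
Mean log2 CPM of 6 genes in SP-null-mated and virgin heads against time after mating (categories, not to scale), with bars from the lowest to the highest library and 3 h shaded. In nop5, Polr1B and LKRSDH the bars are apart at 3 h with SP-null-mated above virgin, and in Srr and CG5966 they are apart with SP-null-mated below.

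Heads of females mated to wildtype males, who transfer Sex Peptide, were available at 3 h in 2 libraries, of repeats A and B. Compared directly with SP-null-mated heads, wildtype-mated heads had 0 genes called by edgeR and 0 by DESeq2, with 574 (6.36%) at an unadjusted p under 0.05 and a smallest adjusted p of 0.631. The median log2 difference, wildtype-mated minus SP-null-mated, was 0.07 over the 231 genes and 0.02 over the 38, which had been chosen with the same SP-null-mated libraries. Repeat C, absent from the wildtype-mated heads, was the lowest SP-null-mated library in 205 of the 231. A fit of the 5 libraries alone called 15 genes. Beside each other, nop5 had 107 and 68.8 CPM in wildtype-mated repeats A and B and 102 and 85.6 CPM in the SP-null-mated repeats of those letters, and Polr1B had 22.6 and 17.1 CPM in wildtype-mated and 23.2 and 18.1 CPM in SP-null-mated heads. CG5966 had 16.3 and 9.39 CPM in wildtype-mated and 37.4 and 39.1 CPM in SP-null-mated heads, with no overlap. Set against the same 3 virgin libraries, the ribosome biogenesis list had 33 of 38 genes higher and a median of 0.77 in wildtype-mated heads, where 3.95% of all genes were called higher, and 29 and 0.63 in SP-null-mated heads. These 2 comparisons share their virgins but not their repeats, since wildtype-mated heads lack repeat C. In SP-null-mated heads the list's median difference from virgins was smallest in C, 0.43, against 0.80 in A and 0.72 in B. In repeats A and B the list averaged 4.89 and 4.56 log2 CPM in wildtype-mated heads. The SP-null-mated heads of those letters averaged 4.84 and 4.68 log2 CPM. With 2 wildtype-mated libraries the absence of calls does not show that the mated groups were alike.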

How the data were processed

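Raw counts of reads per gene were deposited by the authors, 1 column per library, for heads of SP-null-mated, wildtype-mated and virgin females. Libraries were stranded and poly(A)-selected, per the labels' protocols. Trimmomatic 0.39, STAR 2.7.5a, HTSeq 0.11.2, edgeR and the builds dm6 and BDGP6 are named, per the submitters' processing notes, and the strand setting of the counting is not given in the sources used here. Of 90 samples 87 had a column here, and the 3 others (wildtype-mated C at 2 h and 3 h, virgin C at 6 h) were not analysed here. All 9027 genes of the table reached at least 10 counts in some library, and filterByExpr (minimum count 10, minimum total 15) kept 9024. Symbols from a reference name table matched 8977 identifiers and 50 kept their identifier. Coordinates and overlaps come from the Ensembl annotation of BDGP6, and no sequences were used here.

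Counts of all 87 libraries were fitted in R 4.3.3 with edgeR 4.0.16 (limma 3.58.1): TMM scaling, a mean per group for 30 groups, and glmQLFit with robust dispersions, so that all groups shared an estimate of the spread. The contrasts were SP-null-mated minus virgin at each time, its change with time, and wildtype-mated minus SP-null-mated at 3 h. Log2 CPM used a prior count of 2, and standard errors came from the quasi-likelihood F. The fit was tested on simulated counts first. P-values rest on the spread between libraries within a group, shared over the 30 groups, and the main fit leaves out the pairing by run. Counting error alone is small at these depths for all but the lowest genes.

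Named genes were, among those called with groups apart and a mean of at least 1 log2 CPM, the 15 highest and 10 lowest by log2 fold change, up to 4 called members of each list by p, up to 3 genes of each test of change, and SPR, Clk, fit, CG11741 and CG16898. Members singled out beyond that rule were chosen after their values were seen. The comparison and the gene lists were chosen with earlier results of these data known. Of the lists, 47 were written with the design and 10 complete complexes or pathways after seeing the data; 1 further complex is not reported here. A few older symbols that match another gene were left out of the lists.

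Per the series' design text the time course was run 3 times in full, so the letters pair the samples. Same-letter libraries of the 2 groups deviated from their group means with correlations of 0.214 in A, -0.005 in B and 0.156 in C. Alternatives were RLE size factors, no filter, DESeq2 1.42.0, a replicate block, fits of the libraries compared alone and each library left out in turn.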

Additional observations from a re-analysis of the deposited data

Results flagged for a closer look

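The difference between SP-null-mated and virgin heads depended on the time after mating. By edgeR's quasi-likelihood test of the interaction, adjusted over all genes tested, it differed between 3 h and the mean of 5 h to 24 h for 301 genes. It differed between 3 h and 0.5 h for 275 and between 3 h and 6 h for 196. The last 2 tests were chosen after seeing the data, and virgin heads at 6 h lack repeat C. Among the genes with the smallest p, the change from the later times was 0.93 for CG13097, 1.17 for Polr1B and 1.17 for CG4554 on the log2 scale. At 3 h CG13097 had 19.2, 18.6 and 14.5 CPM in SP-null-mated and 10.6, 10.3 and 9.8 CPM in virgin heads. CG4554 had 36.4, 33.1 and 26.7 CPM in SP-null-mated and 18, 14.6 and 14.2 CPM in virgin heads. The groups of both genes were apart.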

How the results depend on the processing

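The 269 calls at 3 h were 257 with RLE size factors, 269 without the filter, 275 by DESeq2 and 356 with the replicate block, with 80.6% of the last count higher against 85.9% in the main result. They were 71 in the fit of the 6 libraries alone, which estimates the spread from fewer samples, and from 154 to 301 when 1 library was left out. Of the 231 higher genes 217 were called with RLE size factors, 218 by DESeq2 and 129 to 217 without 1 library. The log2 fold changes of all genes kept a median between -0.01 and 0.01 in these settings. Between 3 h and 2 h, DESeq2 called 2 genes in place of 0, and leaving out 1 library gave 0 to 7. Between 3 h and 4 h, DESeq2 called 10 and the replicate block 17 in place of 0, and leaving out 1 library gave 0 to 17. The count against the mean of 5 h to 24 h was 169 to 305 without 1 library, and that against 0.5 h was 181 to 333. For wildtype-mated against SP-null-mated heads the 5 libraries alone gave 15 genes in place of 0. The cause of these shifts was not tested, apart from the samples each setting leaves out. No named gene with a call changed sign in any setting. In the fit of all libraries the replicate block ended no call of a named gene. With that block in the fit of the 6 libraries alone several were lost, Taldo, AGBE, eRF1 and Nop10 among them. Calls of genes near 1 CPM rest on few counts.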

Other observations

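Among the 231 higher genes, some groups outside the lists were picked out after their values were seen and are given as values only. Enzymes that modify tRNA or rRNA bases included the methyltransferases Mt2 at 0.83, Nsun2 at 0.82 and Trm1 at 0.37, the pseudouridine synthases Pus7 at 0.54 and Pus1 at 0.46, and the dihydrouridine synthase Dus3 at 0.55 (log2, SP-null-mated minus virgin). Enzymes of nucleotide synthesis included CTP synthase, Ctps, with 64.1, 57.9 and 51.4 CPM in mated and 42.9, 41.1 and 37.7 CPM in virgin heads (0.51 ± 0.0704, adjusted p 5.28e-07). IMP dehydrogenase, ras, differed by 0.31 ± 0.0821 (adjusted p 0.02). Tdh, threonine dehydrogenase, had 44.1, 37.1 and 36.7 CPM in mated and 23.8, 15 and 18.7 CPM in virgin heads (1.04 ± 0.28, adjusted p 0.0222). The transcriptional coactivator gene srl, the fly PGC-1 gene, had 30.5, 26.7 and 17.8 CPM in mated and 14.6, 13.5 and 10.8 CPM in virgin heads (0.94 ± 0.205, adjusted p 0.00168).

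Among the 38 lower genes, the small GTPase gene Rab9 had 42, 40.3 and 39.4 CPM in mated and 59.7, 53.8 and 51 CPM in virgin heads (-0.44 ± 0.0969, adjusted p 0.00209). Pex3, a peroxisome assembly gene, differed by -0.29 ± 0.0796 (adjusted p 0.0265). CROT, which handles fatty acids in peroxisomes, had 74.1, 60.9 and 45.7 CPM in mated and 88.8, 74 and 95.7 CPM in virgin heads, with overlapping groups (-0.52 ± 0.151, adjusted p 0.0414).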
